A study of Mus musculus with 4 samples.

Results

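The CD4 T cells of the adult mouse liver were 268 cells out of 11981 adult barcodes kept, from a series of 29335 barcodes in 4 libraries. They were chosen by their transcripts in both adult libraries: at least 300 genes, at most 25% mitochondrial unique molecular identifiers (UMIs), at least 1 UMI of the CD3 subunit genes Cd3d, Cd3e or Cd3g, at least 1 of Cd4, and none of Cd8a, Cd8b1 or the B cell receptor gene Cd79a. One library came from adult male offspring, 8 weeks old, of mothers with hyperglycemia in pregnancy (intrauterine hyperglycemia, IHG), and held 149 of the cells. The other came from adult male offspring of the same age of control mothers (Ctrl) and held 119. Each library was a pool of the livers of 3 adults, taken after perfusion through the portal vein, digested with enzymes and treated to lyse red cells, and its cells were captured in droplets for 10x Genomics 3′ sequencing. Strain and the way hyperglycemia was brought about are not given in the sources used here. The series also holds an IHG and a Ctrl fetal liver library at E18.5. No fetal barcode met the rule, of 8192 kept in fetal IHG and 7701 in fetal Ctrl.

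CD4 T cells recognise peptides on MHC class II molecules and help other immune cells through cytokines and surface ligands. Naive CD4 T cells circulate between blood and lymph nodes under the transcription factors Lef1, Tcf7 and Klf2, and after activation give rise to effector and memory cells, among them Th1 cells that make interferon gamma, Th2 cells that make interleukin 4, and Foxp3-positive regulatory cells. The liver sinusoids hold both circulating cells and memory cells that stay in the tissue.

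The adult IHG library had 6851 barcodes with a median of 2235 UMIs and the adult Ctrl library 5245 with a median of 2558. The CD4 T cells were deeper, with medians of 3309 UMIs and 1065 genes in IHG and 3173 UMIs and 1043 genes in Ctrl, and with 2.78% mitochondrial UMIs in IHG and 3.30% in Ctrl. Their summed counts were 615917 UMIs in IHG and 490051 UMIs in Ctrl. The adult libraries shared 8 barcodes, none of them a CD4 T cell. The rule rested on few molecules: 121 of 149 IHG and 105 of 119 Ctrl cells had exactly 1 Cd4 UMI, and 15 IHG and 10 Ctrl cells had exactly 1 CD3 UMI. A Cd4 UMI was found in 8 of 3433 IHG B cells (0.233%) and in 5 of 1854 Ctrl B cells (0.270%), which is the level in cells that should lack it. T cells whose Cd4 transcripts were not captured fall among the T cells without a Cd4 or Cd8 UMI, and their number was not measured.

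The label was checked on markers outside the rule. Cd3e (chr9:44998740-45009627, minus strand, GENCODE M21 on mm10), a subunit of the T cell receptor complex, is part of the rule and is given as a description: it had a UMI in 68.5% of IHG and 68.1% of Ctrl CD4 T cells; the B cells used beside them (a Cd79a UMI and no CD3 UMI) lack it by their own rule. Trac, the T cell receptor alpha constant gene and not part of the rule, had a UMI in 76.5% of IHG and 79.0% of Ctrl CD4 T cells, against 1.72% of IHG and 2.27% of Ctrl B cells. Lef1, a transcription factor of early and naive T cells, was detected in 40.3% of cells in IHG and in 40.3% in Ctrl, and its relative Tcf7 in 49.0% in IHG and 42.9% in Ctrl; in B cells Lef1 was detected in 1.37% in IHG and 2.48% in Ctrl, and Tcf7 in 0.670% in IHG and 0.917% in Ctrl. Neither Lef1 nor Tcf7 passed the test between CD4 and CD8 T cells given below. All 7 Kupffer cell markers and both mesothelial markers were at 0 in the CD4 T cells. Endothelial markers had a UMI in 10.7% of IHG and 14.3% of Ctrl CD4 T cells, against 4.53% of IHG and 9.36% of Ctrl CD8 T cells. Of the 4 endothelial genes listed, 1 was detected in IHG and 4 in Ctrl CD4 T cells. Neutrophil markers had a UMI in 8.72% of IHG and 3.36% of Ctrl CD4 T cells, and B cell markers in 4.70% of IHG and 5.04% of Ctrl. The 3 natural killer T cell markers had a UMI in 17 IHG cells (11.4%) and 20 Ctrl cells (16.8%). For the 4 gamma delta T cell markers it was 13 IHG cells (8.72%) and 9 Ctrl cells (7.56%). The 4 monocyte markers summed to 189 UMIs in 18 IHG cells and 30 UMIs in 15 Ctrl cells, and the 7 markers of NK cells and type 1 innate lymphoid cells to 79 UMIs in 10 IHG cells and 27 UMIs in 14 Ctrl cells. A single IHG cell with 8113 UMIs and no Cd3e UMI held 145 of the 152 Lyz2 UMIs.

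CD4 T cells made up 2.20% of kept barcodes in IHG (95% Clopper-Pearson interval 1.86 to 2.57) and 2.29% in Ctrl (1.90 to 2.73), a log2 ratio of -0.06 with a counting interval of -0.42 to 0.30. Among T cells they were 9.12% of 1633 in IHG and 7.36% of 1616 in Ctrl, with a log2 ratio of 0.31 (-0.05 to 0.67). There were 0.482 CD4 T cells for each CD8 T cell in IHG and 0.446 in Ctrl. In IHG the B cells, which share the denominator of kept barcodes, were 50.6% of barcodes, against 35.7% in Ctrl. With 1 library per group these shares carry no test, and every interval between IHG and Ctrl covers counting error only, not differences between animals, digestions or captures.

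CD4 T cells were first set against the CD8 T cells of the same libraries (309 in IHG, 267 in Ctrl; at least 1 Cd8a or Cd8b1 UMI and no Cd4 UMI), in which Cd4 and Cd8 themselves are the rule and not a result. Tnfrsf4, Cd40lg, Maf, Icos and Ctla4 were higher in CD4 T cells, as were 6 of 11 regulatory T cell genes, 8 of 19 tissue memory genes and 4 of 11 costimulation and checkpoint genes, of which 1 was lower, while 12 of 15 cytotoxic genes were lower. edgeR's quasi-likelihood test on UMIs summed per library and class, with the library as a block, called 101 of 7657 genes higher (1.32%) and 159 lower (2.08%) at a Benjamini-Hochberg adjusted p of 0.05, the gate genes left out. The sign was the same in both libraries for 100 of the 101 and for all 159. Without the library block 46 genes were called higher and 45 lower, and DESeq2 called 37 and 91. Levels are given in CPM, the UMIs of a gene scaled to a total of 1000000 UMIs for the class in that library.

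Tnfrsf4 (chr4:156013843-156016612, plus strand), which encodes the costimulatory receptor OX40, stood at 141 CPM in IHG and 151 CPM in Ctrl CD4 T cells, against 5.86 CPM in IHG and 7.73 CPM in Ctrl CD8 T cells. Its log2 difference was 4.20 (SE 0.30, adjusted p = 1.6e-07). Cd40lg (chrX:57212143-57224042, plus strand), the ligand through which helper T cells signal to B cells and dendritic cells, stood at 120 CPM in IHG and 112 CPM in Ctrl CD4 T cells, against 5.02 CPM in IHG and 19.3 CPM in Ctrl CD8 T cells (log2 difference 3.06, SE 0.32, adjusted p = 1.9e-05). A Cd40lg UMI was found in 32.9% of IHG and 26.1% of Ctrl CD4 T cells, in 1.29% of IHG and 5.99% of Ctrl CD8 T cells, and in 0.117% of IHG and 0.108% of Ctrl B cells. For both genes, which the test called, the 2 CD4 values lay far above the 2 CD8 values. The share of all genes that separate in this way was not counted.

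Maf, a transcription factor that drives interleukin 4 and interleukin 21 in helper T cells, stood at 240 CPM in IHG and 284 CPM in Ctrl CD4 T cells, against 30.1 CPM in IHG and 24.0 CPM in Ctrl CD8 T cells (log2 difference 3.09, SE 0.21). Tnfsf8, which encodes the CD30 ligand, stood at 120 CPM in IHG and 93.9 CPM in Ctrl CD4 T cells, against 22.6 CPM in IHG and 10.1 CPM in Ctrl CD8 T cells (log2 difference 2.53, SE 0.26). The costimulatory receptor Icos and the checkpoint receptor Ctla4 were also higher, by 1.48 (SE 0.17) and 1.01 (SE 0.16) on the log2 scale. Il4 (chr11:53602982-53618669, minus strand), the Th2 cytokine, had 50 UMIs in IHG and 16 UMIs in Ctrl CD4 T cells, against 2 UMIs in IHG and 2 UMIs in Ctrl CD8 T cells; its log2 difference of 4.97 (SE 0.62, adjusted p = 0.00016) was not called by DESeq2.

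Of the transcription factors that set the CD4 and CD8 lineages, Zbtb7b (chr3:89377644-89394776, minus strand; ThPOK, required for the CD4 fate) had only 6 UMIs in IHG and 7 UMIs in Ctrl CD4 T cells, against 2 UMIs in IHG and 1 UMI in Ctrl CD8 T cells. That is a pooled ratio of 9.75-fold higher with a counting interval of 2.68 to 53.3, called with an adjusted p of 0.042 and lost both with DESeq2 and without the library block. Zbtb7b had a UMI in 3.36% of IHG and 5.88% of Ctrl CD4 T cells and in 1.43% of IHG and 1.73% of Ctrl B cells, so most CD4 T cells had none. Runx3 (chr4:135120652-135177990, plus strand), which represses Cd4 in the CD8 lineage, stood at 79.6 CPM in IHG and 67.3 CPM in Ctrl CD4 T cells, against 272 CPM in IHG and 223 CPM in Ctrl CD8 T cells (log2 difference -1.94, SE 0.17, adjusted p = 2.3e-06). Runx1 was higher by 1.07 (SE 0.18). Lef1 (log2 difference -0.01, SE 0.15), Tcf7 (0.54, SE 0.15, adjusted p = 0.058) and Gata3 (0.75, SE 0.22, adjusted p = 0.076) did not pass the test.

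Of the 15 cytotoxic genes tested, 12 were lower in CD4 T cells and 0 higher, with a median log2 difference of -2.30, beside -0.02 over all genes. The list includes the chemokines Ccl3, Ccl4, Ccl5 and Xcl1. Markers of NK cells and type 1 innate lymphoid cells had a UMI in 24.9% of IHG and 25.1% of Ctrl CD8 T cells. In CD4 T cells it was 6.71% in IHG and 11.8% in Ctrl. The part of such cells in these calls was not tested. Ccl5 (chr11:83525778-83530518, minus strand), a chemokine of effector and memory T cells, stood at 2317 CPM in IHG and 1781 CPM in Ctrl CD4 T cells, against 12446 CPM in IHG and 10992 CPM in Ctrl CD8 T cells (log2 difference -2.71, SE 0.08, adjusted p = 5.2e-13). Nkg7, a cytotoxic granule membrane protein, was lower, with a log2 difference of -1.16, and so were the serine proteases Gzma (-2.66) and Gzmb (-2.30). Gzma rested on few cells: 1 cell held 159 of its 200 UMIs in IHG CD4 T cells and 1 cell 60 of 89 in Ctrl CD4 T cells. Eomes, a T-box factor of memory CD8 T cells and NK cells, had 3 UMIs in IHG and 0 UMIs in Ctrl CD4 T cells, against 57 UMIs in IHG and 55 UMIs in Ctrl CD8 T cells, a pooled ratio of 16.6-fold lower (counting interval 5.53 to 81.7). Ifng was not called (log2 difference -0.51, SE 0.21, adjusted p = 0.27); the 2 libraries gave opposite signs, -1.20 in IHG and 0.18 in Ctrl, and 1 cell weighed in each, with 316 of the 756 Ifng UMIs of IHG CD8 T cells in 1 cell and 82 of the 216 of Ctrl CD4 T cells in 1 cell.

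**Figure D1:**
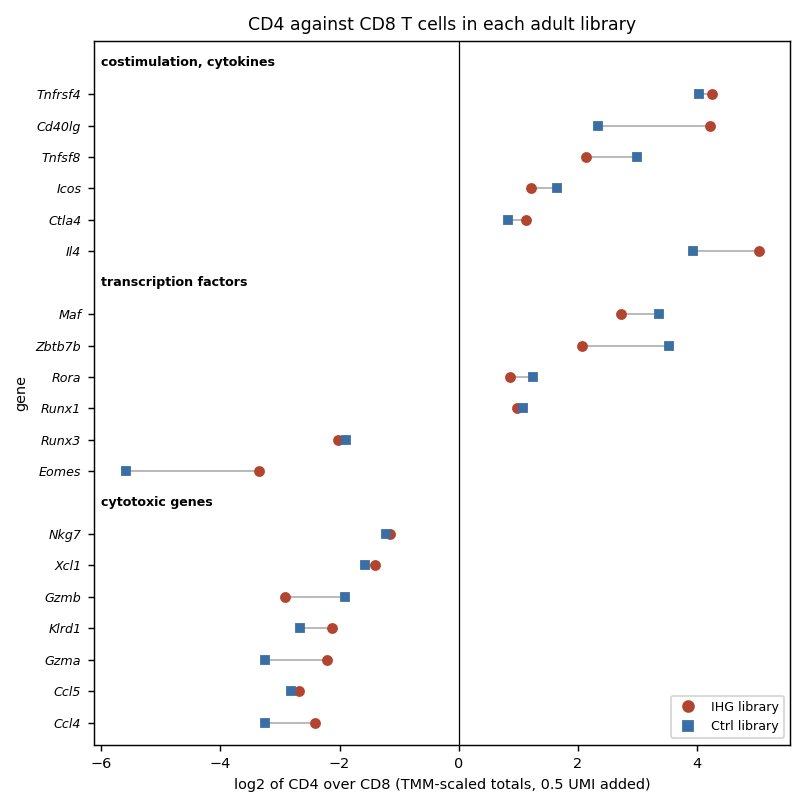
Log2 ratio of CD4 over CD8 T cells within each adult library for named genes, from UMI sums with 0.5 added and TMM-scaled totals; circles are the IHG library, squares the Ctrl library, and each pair is joined by a line. Tnfrsf4 lies above 4 and Runx3 and Ccl5 near -2 and -3 with both libraries close together, while Cd40lg (4.21 in IHG, 2.33 in Ctrl) and Eomes differ more between the libraries.

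Of 11 genes of the regulatory T cell list 6 were higher and 0 lower (median log2 difference 1.27), among them Izumo1r (2.03), a folate receptor family member; 4 of the 6, Tnfrsf4, Ctla4, Tnfrsf18 and Izumo1r, are also made by activated helper T cells without Foxp3. Of 19 tissue memory genes 8 were higher and 0 lower (median 0.42), among them the integrin Itgb1 at 391 CPM in IHG and 406 CPM in Ctrl CD4 T cells, against 108 CPM in IHG and 123 CPM in Ctrl CD8 T cells (log2 difference 1.59, SE 0.15), and the nuclear receptor Rora (1.11, SE 0.17). Of 31 interferon-induced genes 6 were higher and 0 lower (median 0.41), among them Ifi27l2a (1.16, SE 0.11) and the surface protein Ly6a (2.25), while Isg15 was not called (0.44, adjusted p = 0.17). The glucocorticoid receptor Nr3c1 (1.10) and the hypoxia factor Hif1a (1.15) were higher. Of 14 naive cell genes 3 were lower, among them Klf2 (-0.92, SE 0.11), and 1 higher. The gamma delta T cell receptor constant gene Trdc stood at 1.62 CPM in IHG and 6.12 CPM in Ctrl CD4 T cells, against 29.3 CPM in IHG and 93.5 CPM in Ctrl CD8 T cells (-4.17, SE 0.57). Of 17 immediate early genes 4 were lower and 0 higher, among them Fos (-0.55). No gene was called among 30 of oxidative phosphorylation, 21 of T cell receptor signalling or 14 of proliferation.

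The 2 cytokine genes called among the Th17 genes came from very few cells. All Il22 UMIs sat in 1 cell of each library (22 UMIs in IHG, 16 UMIs in Ctrl). Il17a had 1 UMI in IHG and 38 UMIs in Ctrl CD4 T cells, 33 of them in 1 Ctrl cell, against 0 UMIs in CD8 T cells, which is at least 29.2-fold higher by a floor of 3 counts over both CD8 sums. Lyz2 was called higher (log2 difference 3.86) through the single IHG cell described above, and was -1.12 within Ctrl. DESeq2 did not call Il22, Il17a, Lyz2, Eomes or Izumo1r, the fit without the library block did not call Rora or Fos, and thinning to 1000 UMIs lost the call of Runx1.

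The second comparison was with the T cells that had no Cd4 or Cd8 UMI (1171 in IHG, 1226 in Ctrl). CD4 T cells had lower levels of all 17 immediate early genes on the list and of 10 of 15 cytotoxic genes, while 7 of 21 T cell receptor signalling genes and 9 of 14 proliferation genes were higher. The same fit called 161 genes higher in CD4 T cells (2.1% of 7657) and 306 lower (4%). DESeq2 called 38 higher and 113 lower, and the fit without the library block 55 and 168. The compared class was mixed: markers of NK cells and type 1 innate lymphoid cells had a UMI in 29.8% of its IHG and 30.6% of its Ctrl cells, against 6.71% of IHG and 11.8% of Ctrl CD4 T cells, and exactly 1 CD3 UMI was found in 212 of its 1171 IHG and 212 of its 1226 Ctrl cells. It also held hepatocyte marker UMIs, 199 in IHG and 754 in Ctrl, against 3 in IHG and 0 in Ctrl CD4 T cells. Apoc1, an apolipoprotein gene of hepatocytes, had 0 UMIs in CD4 T cells of either library, against 157 UMIs in IHG and 446 UMIs in Ctrl cells of the other class, at least 28.2-fold lower by a floor of 3 counts over both CD4 sums. The part of these cells in the calls was examined only by leaving out every cell with a UMI of Cd79b, Ms4a1, Lyz2, C1qa, C1qb, Csf1r, Ncr1, Kdr or S100a8, which gave 174 genes higher and 287 lower. No hepatocyte gene is in that set, and most of the NK cell markers are not in it either.

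All 17 immediate early genes were lower in CD4 T cells, with a median log2 difference of -0.68, beside -0.01 over all genes. Egr1, an early response transcription factor, stood at 106 CPM in IHG and 145 CPM in Ctrl CD4 T cells, against 215 CPM in IHG and 308 CPM in Ctrl T cells without Cd4 or Cd8 UMIs (log2 difference -1.14, SE 0.15, adjusted p = 8.6e-05). Jund, an AP-1 subunit, stood at 2437 CPM in IHG and 2286 CPM in Ctrl CD4 T cells, against 3701 CPM in IHG and 3408 CPM in Ctrl cells of that class (-0.68, SE 0.09). The groups did not overlap for either gene, and the share of all genes that separate in this way was not counted. Of 10 heat shock genes 6 were lower and 0 higher, among them the inducible chaperone Hspa1b (-0.91, SE 0.11). Of 12 genes induced by the T cell receptor 7 were lower and 0 higher.

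Of the 15 cytotoxic genes 10 were lower, including Ccl5 (-1.74, SE 0.07) and the chemokine Xcl1, at 270 CPM in IHG and 239 CPM in Ctrl CD4 T cells, against 1335 CPM in IHG and 1161 CPM in Ctrl cells of the other class (-2.38, SE 0.12, adjusted p = 7e-10). Of the 21 T cell receptor signalling genes 7 were higher and 0 lower: the adaptor Lat stood at 396 CPM in IHG and 388 CPM in Ctrl CD4 T cells, against 218 CPM in IHG and 191 CPM in Ctrl cells of the other class (0.85, SE 0.12, adjusted p = 0.00036), and Trac was higher by 0.67 (SE 0.12). Ctla4 (1.34, SE 0.15), Tnfrsf4 (1.71), Icos (0.74) and Tcf7 (0.72) were higher as well. Cd40lg (0.42, SE 0.22, adjusted p = 0.33), Maf (0.55, SE 0.16, adjusted p = 0.051) and Zbtb7b (0.13, SE 0.47, adjusted p = 0.93), which separated CD4 from CD8 T cells, did not pass the test here. Cd40lg had a UMI in 16.0% of IHG and 17.4% of Ctrl cells of the class without Cd4 or Cd8 UMIs.

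Of the 14 proliferation genes 9 were higher in CD4 T cells and 0 lower, with a median log2 difference of 1.47. The proliferation antigen Mki67 stood at 104 CPM in IHG and 83.7 CPM in Ctrl CD4 T cells, against 26.1 CPM in IHG and 30.9 CPM in Ctrl cells of the other class (1.67, SE 0.26, adjusted p = 0.00054). Pclaf, a clamp protein partner in DNA replication, stood at 159 CPM in IHG and 143 CPM in Ctrl CD4 T cells, against 29.3 CPM in IHG and 42.3 CPM in Ctrl cells of the other class (2.05, SE 0.28). A UMI of Mki67 or of the topoisomerase Top2a was found in 17 IHG and 20 Ctrl CD4 T cells (11.4% in IHG, 16.8% in Ctrl). The share was 4.78% in IHG and 6.36% in Ctrl cells of the other class, and 8.74% in IHG and 18.0% in Ctrl CD8 T cells. The other class is defined by having no Cd4 or Cd8 UMI and was shallower. Its median was 2903 UMIs in IHG and 2869 UMIs in Ctrl, against 3309 and 3173 in CD4 T cells. The part of this selection in the proliferation calls was not tested. None of the 14 was called between CD4 and CD8 T cells. With cells thinned to 1000 UMIs, which left far fewer genes tested, the calls of Lat, Tnfrsf4, Icos, Tcf7, Mki67 and Top2a in this comparison were lost; without the library block those of Icos, Tcf7, Top2a and Birc5 were lost.

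**Figure D2:**
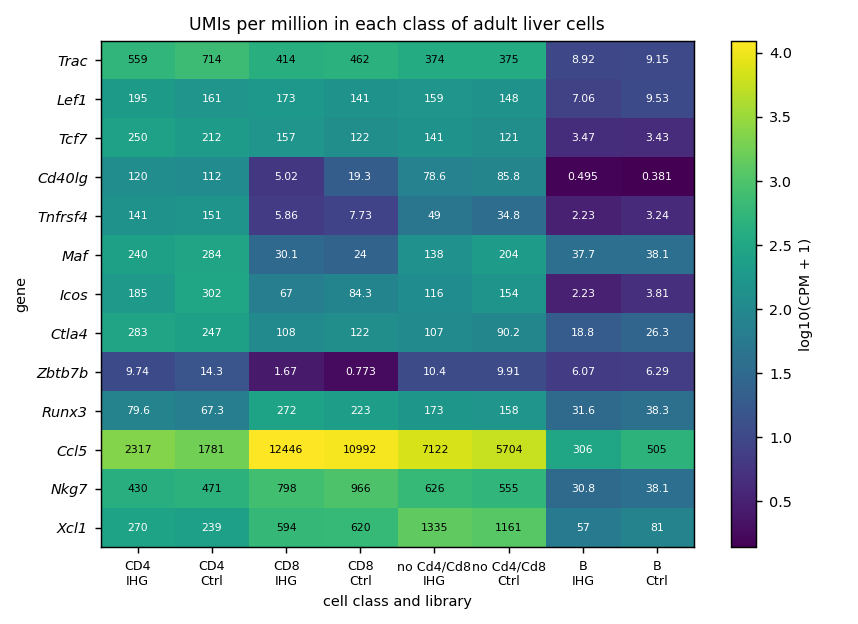
Level in CPM of 13 named genes in CD4 T cells, CD8 T cells, T cells without Cd4 or Cd8 UMIs and B cells of the IHG and Ctrl adult libraries; the number in each cell is the CPM and the colour its log10 after adding 1. Tnfrsf4 and Cd40lg are highest in CD4 T cells in both libraries, and Ccl5 is lower in CD4 T cells than in the other T cell classes.

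The CD4 T cells themselves were then split by genes of lymph node homing, among them Ccr7, and of tissue memory (Cxcr3, Cxcr6, S100a4, Itgb1). Cells with a UMI of the second set only were called memory-gated, 61 in IHG (40.9%) and 51 in Ctrl (42.9%), and cells with a UMI of the first set only naive-gated, 32 in IHG (21.5%) and 30 in Ctrl (25.2%). Cells with both numbered 23 in IHG and 19 in Ctrl, and cells with neither 29 in IHG and 19 in Ctrl. The IHG and Ctrl shares differed by less than counting error, with log2 ratios of -0.07 (-0.63 to 0.50) for memory-gated and -0.23 (-0.996 to 0.537) for naive-gated cells. The gate depends on depth: the median was 3348 UMIs in IHG and 3430 UMIs in Ctrl memory-gated cells, 3290 UMIs in IHG and 2680 UMIs in Ctrl naive-gated cells, and 5389 UMIs in IHG and 6697 UMIs in Ctrl cells with both sets. After thinning each cell to 1000 UMIs, memory-gated cells were 36.1% in IHG and 31.9% in Ctrl, and naive-gated cells 12.9% in IHG and 17.6% in Ctrl.

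Foxp3 (chrX:7573644-7595245, plus strand), the regulatory T cell factor, had a UMI in 4 of 149 IHG cells (2.68%, 0.736 to 6.73) and in 0 of 119 Ctrl cells, which allows a share of up to 2.52% by a floor of 3 counts and of 3.05% by the exact upper bound. These limits cover counting error only and apply to cells with a UMI, not to cells that express the gene. All 4 had UMIs of Ctla4, Tnfrsf4 and Ikzf2, and 2 of Il2ra, the interleukin 2 receptor alpha chain. Their median depth was 6720.5 UMIs, and after thinning none of the cells kept a Foxp3 UMI. A Foxp3 UMI was found in 2 of 3433 IHG B cells and 0 of 1854 Ctrl B cells. Tnfrsf4 was detected in 27 IHG and 28 Ctrl cells, so most OX40-positive cells had no Foxp3 UMI.

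Between memory-gated and naive-gated CD4 T cells the effector genes Ccl5, Nkg7, Ifng and Xcl1 were higher, together with 13 of 14 tissue memory genes and 4 of 6 cell division genes, and the naive cell regulators Lef1, Satb1, Foxp1, Klf2 and Tcf7 were lower. edgeR on UMIs summed per library and subset, with the library as a block, called 143 of 1769 genes higher in memory-gated cells (8.08%) and 163 lower (9.21%), without the gate genes. The sign was the same in both libraries for 142 of the 143 and for all 163. DESeq2 called 55 higher and 104 lower. Promoter windows of 4 of these genes are printed as examples, picked with their matches known. Each runs from 250 bases before to 50 bases after a transcription start, from RefSeq on GRCm38.p6. All were searched on both strands for the T-box letters GGTGTGA, the RUNX letters TGTGGT, the TCF/LEF letters CTTTGA and the AP-1 letters TGANTCA. Capitals mark a match, which on the minus strand of the window reads as the reverse complement; no 2 matches overlap. Positions below count from the start.
Nkg7 (chr7:43436888-43437187, plus strand): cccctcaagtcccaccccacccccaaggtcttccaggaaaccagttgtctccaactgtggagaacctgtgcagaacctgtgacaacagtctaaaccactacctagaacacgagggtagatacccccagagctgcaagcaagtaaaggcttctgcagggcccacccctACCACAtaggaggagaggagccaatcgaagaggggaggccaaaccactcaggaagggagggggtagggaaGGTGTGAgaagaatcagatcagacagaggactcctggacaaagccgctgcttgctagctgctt
Xcl1 (chr1:164935473-164935772, minus strand): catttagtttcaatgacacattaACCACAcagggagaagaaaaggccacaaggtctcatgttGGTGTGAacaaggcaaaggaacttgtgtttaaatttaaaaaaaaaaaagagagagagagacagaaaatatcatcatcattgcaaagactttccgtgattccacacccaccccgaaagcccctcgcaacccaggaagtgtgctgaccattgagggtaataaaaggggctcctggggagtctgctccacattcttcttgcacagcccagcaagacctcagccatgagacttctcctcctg
Ifng (chr10:118440796-118441095, plus strand): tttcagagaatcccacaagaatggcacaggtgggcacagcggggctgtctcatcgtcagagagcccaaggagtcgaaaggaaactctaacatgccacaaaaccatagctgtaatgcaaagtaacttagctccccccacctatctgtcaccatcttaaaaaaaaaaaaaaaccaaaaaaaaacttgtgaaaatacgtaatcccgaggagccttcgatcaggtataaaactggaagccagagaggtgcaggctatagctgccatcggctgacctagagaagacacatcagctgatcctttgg
Lef1 (chr3:131156044-131156343, plus strand): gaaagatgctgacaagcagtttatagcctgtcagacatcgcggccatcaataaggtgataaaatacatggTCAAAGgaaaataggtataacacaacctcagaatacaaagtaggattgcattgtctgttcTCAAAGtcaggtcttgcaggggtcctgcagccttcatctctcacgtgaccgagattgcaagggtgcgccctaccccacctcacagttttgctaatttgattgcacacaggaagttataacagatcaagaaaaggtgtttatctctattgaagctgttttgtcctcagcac
The Nkg7 window held a T-box match at -13 and a RUNX match at -83, and the Xcl1 window both at -188 and -227. The Ifng window held none of the 4. Lef1 had 4 starts in the table. The one printed lies inside the gene and held TCF/LEF matches at -180 and -120. The others, which lie nearer the 5′ end of the gene, held no match. Satb1, with 5 starts in the table, Tcf7 and Il4 with 2 each, and Klf2 and Tnfrsf4 with 1 each held no match at any start, while the 1 start of Il7r held one. Over all 32851 such promoter windows, a share of 3.98% held the T-box letters, 16.8% RUNX, 16.0% TCF/LEF and 7.81% AP-1. A match only says that these letters are present. Because the windows printed were chosen knowing their matches, they do not measure how often such genes hold one. The table has no entry for Ccl5, Il2rb, Maf and Cd40lg.

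Ccl5 stood at 4297 CPM in IHG and 3016 CPM in Ctrl memory-gated cells, against 84.4 CPM in IHG and 81.8 CPM in Ctrl naive-gated cells, a log2 difference of 5.13 (SE 0.41, adjusted p = 9.3e-09). It had a UMI in 65.6% of IHG and 76.5% of Ctrl memory-gated cells and in 21.9% of IHG and 10.0% of Ctrl naive-gated cells. B cells had a Ccl5 UMI in 14.1% in IHG and 16.9% in Ctrl, with 306 CPM in IHG and 505 CPM in Ctrl. Whether the Ccl5 UMIs of naive-gated cells are background was not tested. Nkg7 stood at 768 CPM in IHG and 608 CPM in Ctrl memory-gated cells, against 9.38 CPM in IHG and 11.7 CPM in Ctrl naive-gated cells, a pooled ratio of 66.6-fold (counting interval 18.3 to 552).

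Ifng (chr10:118441046-118445892, plus strand), interferon gamma, stood at 536 CPM in IHG and 470 CPM in Ctrl memory-gated cells, against 28.1 CPM in IHG and 0 CPM in Ctrl naive-gated cells. The pooled ratio was 32.3-fold (10.9 to 158, adjusted p = 1e-05), and an Ifng UMI was present in 60.7% of IHG and 60.8% of Ctrl memory-gated cells, against 9.38% of IHG and 0% of Ctrl naive-gated cells. In B cells the share was 2.16% in IHG and 3.56% in Ctrl. Xcl1 was 29.1-fold higher (9.80 to 142), and Il2rb, the interleukin 2 and 15 receptor beta chain, 21.2-fold higher (7.11 to 104). Tnfrsf4 had 33 UMIs in IHG and 40 UMIs in Ctrl memory-gated cells and 0 UMIs in naive-gated cells of either library, at least 10.4-fold higher by the floor of 3 counts over both naive sums. Of 8 cytotoxic genes 6 were higher and 0 lower, with a median log2 difference of 4.71, or 4.52 with Gzmb at its bound, beside 0.09 over all genes. One of them, Gzma, rested on 1 library: its difference was 5.66 within IHG and -0.64 within Ctrl. Of the 15 cytotoxic genes listed, 8 passed the filter on low counts. Gzmb and Tnfrsf4, at 0 UMIs in naive-gated cells, could pass it only through the other subsets. Nkg7 and Gzma had 1 UMI in the naive-gated cells of each library. For such genes the filter favours the direction found, so the list counts and medians of this comparison are a description.

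Of 14 tissue memory genes outside the gate 13 were higher and 0 lower (median 2.13). S100a11, a calcium-binding protein, stood at 832 CPM in IHG and 817 CPM in Ctrl memory-gated cells, against 103 CPM in IHG and 117 CPM in Ctrl naive-gated cells (log2 difference 2.60, SE 0.31). Rgs1, a G protein regulator that dampens responses to chemokines and marks tissue-resident T cells, stood at 1228 CPM in IHG and 1506 CPM in Ctrl memory-gated cells, against 141 CPM in IHG and 93.5 CPM in Ctrl naive-gated cells (3.19, SE 0.31, adjusted p = 1.8e-07). The galectin Lgals1 (2.22), Rora (2.61) and Maf (3.55) were higher too. Cell division genes were among the higher ones: 4 of 6 tested were called and 0 were lower, with Birc5 at least 8.59-fold and Top2a at least 7.16-fold higher against naive-gated cells without a UMI, and Mki67, which DESeq2 did not call, 9.66-fold higher (2.52 to 82.2). An Mki67 or Top2a UMI was found in 14.8% of IHG and 25.5% of Ctrl memory-gated cells. In the deeper cells with both gate sets it was 21.7% in IHG and 36.8% in Ctrl. It was 3.13% in IHG and 0% in Ctrl naive-gated cells, and 0% in cells with neither set. The naive gate leaves out cells with any UMI of the memory set, and the part of this in the difference was not tested. Of 30 oxidative phosphorylation genes 7 were higher and 0 lower (median 0.55), among them Cox6c at 747 CPM in IHG and 983 CPM in Ctrl memory-gated cells, against 281 CPM in IHG and 246 CPM in Ctrl naive-gated cells (1.37, SE 0.25). Gapdh was the only one called of 10 glycolysis genes (1.15, SE 0.22). Isg15, a ubiquitin-like protein induced by interferon, stood at 798 CPM in IHG and 418 CPM in Ctrl memory-gated cells, against 141 CPM in IHG and 58.5 CPM in Ctrl naive-gated cells (2.25, SE 0.35), while 9 of the 12 interferon genes tested were not called.

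All 10 naive genes tested outside the gate were lower in memory-gated cells (median log2 difference -2.38). Lef1 (chr3:131110471-131224356, plus strand) stood at 84.4 CPM in IHG and 90.2 CPM in Ctrl memory-gated cells, against 572 CPM in IHG and 421 CPM in Ctrl naive-gated cells (-2.81, SE 0.35, adjusted p = 6e-06). Satb1 (chr17:51736187-51833290, minus strand), a chromatin organiser of T cells, stood at 114 CPM in IHG and 214 CPM in Ctrl memory-gated cells, against 844 CPM in IHG and 888 CPM in Ctrl naive-gated cells (-2.80, SE 0.30, adjusted p = 5.7e-07). Klf2, which drives the egress receptor S1pr1, stood at 528 CPM in IHG and 651 CPM in Ctrl memory-gated cells, against 1585 CPM in IHG and 1602 CPM in Ctrl naive-gated cells (-1.76, SE 0.22). Foxp1, which holds naive T cells in quiescence, was lower (-2.58, SE 0.37), as were S1pr1 (-1.28) and Tcf7 (-1.54, SE 0.33). For each of Lef1, Satb1, Foxp1, Klf2 and Tcf7, all called lower, both memory-gated values lay below both naive-gated values. How many of all genes tested separate in this way was not counted. Il4ra, the interleukin 4 receptor alpha chain, was lower as well (-2.36, SE 0.49).

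**Figure D3:**
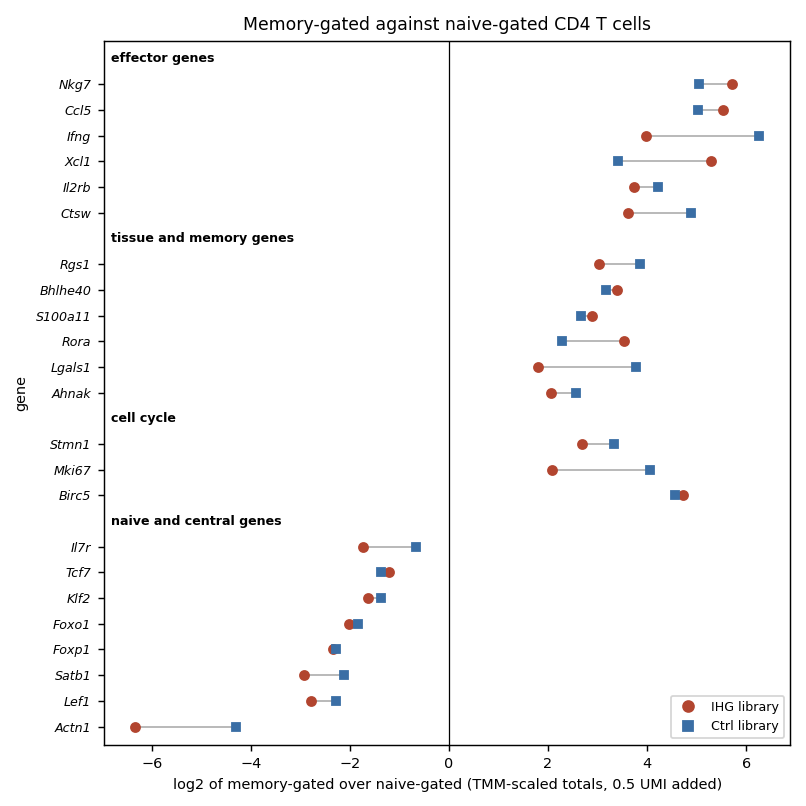
Log2 ratio of memory-gated over naive-gated CD4 T cells within each adult library for named genes, from UMI sums with 0.5 added and TMM-scaled totals; circles are the IHG library and squares the Ctrl library. Effector, tissue and cell cycle genes lie to the right of 0 and naive genes to the left in both libraries, with Ccl5 above 5 and Lef1 and Satb1 below -2.

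Few cells had UMIs of the other helper cytokines. Il4 was found in 13 IHG and 9 Ctrl cells, of which 9 in IHG and 6 in Ctrl also had Ifng. Only 2 of the 13 IHG and 1 of the 9 Ctrl Il4-positive cells had a UMI of Gata3, the Th2 factor, and 5 in IHG and 2 in Ctrl had one of Zbtb16, the PLZF factor of natural killer T cells. Those Il4-positive cells were deep, with median depths of 5531 UMIs in IHG and 5429 UMIs in Ctrl. The T-box factor Tbx21 was detected in 22 IHG and 26 Ctrl cells and Gata3 in 33 IHG and 39 Ctrl cells. Il2 was found in 10 IHG and 5 Ctrl cells, Tnf in 24 IHG and 19 Ctrl cells, and Il10 in 5 IHG and 3 Ctrl cells. Il5 was at 0 in both libraries. Of the 60 Ifng-positive IHG cells 41 had Ccl5, and of the 46 in Ctrl 38 had it.

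Receptor variable gene UMIs were sparse and spread over many genes. A Trbv gene was seen in 40 of 149 IHG cells and 24 of 119 Ctrl cells, over 15 genes in IHG and 11 genes in Ctrl of 35 in the table. The most frequent was Trbv12-2, in 9 IHG and 5 Ctrl cells. Trav genes were seen in 29 IHG and 29 Ctrl cells, over 24 genes in IHG and 25 genes in Ctrl of 128. Trav11, the segment of the invariant receptor of mouse natural killer T cells, was seen in 1 IHG and 3 Ctrl cells. With a variable gene in a minority of the cells, clone sizes cannot be read from these counts.

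Over the 4835 genes with at least 20 UMIs in CD4 T cells, the median log2 ratio of IHG over Ctrl was -0.02. Each sum was scaled to its own total, which pulls this median towards 0, so it does not show how close the libraries were. A ratio of at least 1.5-fold was reached by 456 genes higher in IHG (9.43%) and 511 lower (10.6%), and by 140 (2.9%) and 152 (3.14%) with a 95% counting interval without 0. In CD8 T cells 6.01% of genes were higher in IHG by that fold and 15.4% lower, and in B cells 2.72% and 15.7%. There is no test behind these counts, and 1 library per group cannot tell the mothers' condition from the pool, the digestion or the capture. The intervals treat each UMI as independent, so they are too narrow where a few cells hold many UMIs of a gene. Isg15, Ifit1 and Il4 had higher levels in IHG, and S100a4, Rora, Icos and Il4ra had lower ones, each with a counting interval without 0; of 27 interferon-induced genes 7 were higher by at least 1.5-fold and 1 lower.

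Isg15 (chr4:156199424-156200818, minus strand) had 242 UMIs in IHG and 119 UMIs in Ctrl, or 393 CPM in IHG and 243 CPM in Ctrl, a log2 ratio of 0.69 (counting interval 0.37 to 1.02). It was 1.10 in CD8 T cells and -0.42 in B cells. Ifit1 (chr19:34640871-34650009, plus strand), an antiviral protein that binds foreign RNA, had 38 UMIs in 18 IHG cells and 6 UMIs in 4 Ctrl cells (2.24, 1.08 to 3.87). Ifi209 (0.94), Ifi47 (0.75) and the nucleic acid sensor Zbp1 (0.74) also had intervals without 0. Of 27 interferon-induced genes measured 19 were higher in IHG, 7 of them by at least 1.5-fold, with a median of 0.14. The abundant Ifi27l2a was level, with a log2 ratio of -0.06 (-0.20 to 0.07), and Ly6e was at -0.14 (-0.40 to 0.13).

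Il4 had 50 UMIs in IHG and 16 UMIs in Ctrl (1.28, 0.48 to 2.23), from 13 IHG and 9 Ctrl cells. In T cells without Cd4 or Cd8 UMIs Il4 went the other way, with 149 UMIs and 39.7 CPM in IHG and 235 UMIs and 56.8 CPM in Ctrl (-0.52, -0.82 to -0.21). Ccl5 stood at 2317 CPM in IHG and 1781 CPM in Ctrl (0.38, 0.26 to 0.50), with a UMI in 49.0% of IHG and 49.6% of Ctrl cells. Ifng stood at 330 CPM in IHG and 441 CPM in Ctrl (-0.42, -0.70 to -0.14), but 82 of the 216 Ctrl UMIs came from 1 cell, and the ratio was 0.10 with the top cell of each library left out. Gzmb, with 53 UMIs in IHG and 106 UMIs in Ctrl, had 61 of its Ctrl UMIs in 1 cell, and its ratio of -1.32 became -0.61 without the top cells. Gzma (0.83) likewise became 0.16, and -0.45 without the 14 IHG and 6 Ctrl cells that had a UMI of the B cell, myeloid, NK and endothelial genes named above (Cd79b to S100a8). The median over 11 cytotoxic genes was 0.17, with 7 higher and 4 lower.

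S100a4 (chr3:90603771-90606045, plus strand), a calcium-binding protein of motile and memory cells and one of the genes of the memory gate, had 229 UMIs in 44 IHG cells and 359 UMIs in 43 Ctrl cells, a log2 ratio of -0.98 (-1.22 to -0.74), with -0.77 in CD8 T cells and -0.55 in B cells. Rora stood at 172 CPM in IHG and 314 CPM in Ctrl (-0.87, -1.24 to -0.50), and Icos at 185 CPM in IHG and 302 CPM in Ctrl (-0.70, -1.07 to -0.34). Satb1 was at -0.60 (-0.91 to -0.30) and Gata3 at -0.61 (-1.16 to -0.08). Il2ra had 7 UMIs in IHG and 20 UMIs in Ctrl (-1.78), and the signalling genes downstream of interleukin 2, Stat5a (-1.07) and its target Cish (-0.86), and Il4ra (-0.70) were lower with intervals without 0; 6 of 22 cytokine receptor genes were lower by at least 1.5-fold and 1 higher. Fas, the death receptor, was at -1.08 (-2.06 to -0.19), and Bcl2a1b, an antiapoptotic gene with near-identical copies between which reads may be split, at -0.90 (-1.19 to -0.62). Lef1 (0.27, -0.15 to 0.70), Tcf7 (0.23, -0.13 to 0.61), Tnfrsf4 (-0.10, -0.56 to 0.37) and Cd40lg (0.09, -0.42 to 0.63) had intervals that include 0.

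**Figure D4:**
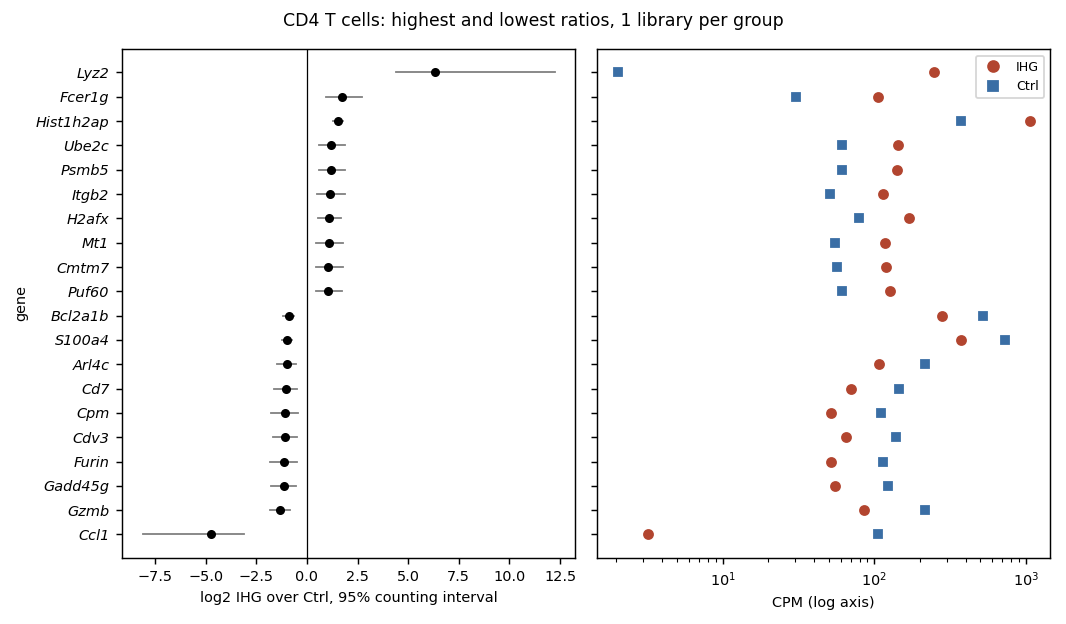
Left, log2 ratio of IHG over Ctrl in CD4 T cells with exact 95% counting intervals for the 10 highest and 10 lowest genes; right, their CPM on a log axis, with circles for IHG and squares for Ctrl. The intervals cover counting error only, and the extremes, Lyz2 and Ccl1, each came almost wholly from 1 cell.

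Among 1121 genes with at least 50 UMIs and 100 CPM in 1 library, the highest in IHG after the myeloid genes Lyz2 and Fcer1g was Hist1h2ap, a replication-dependent histone gene of a multigene family, with 653 UMIs in IHG and 182 UMIs in Ctrl (1.51, 1.27 to 1.76). The top 2 cells held 135 and 118 of these UMIs in IHG and 73 and 34 in Ctrl. Without the top cell of each library its ratio was 1.91. Ube2c, which acts in mitosis, was at 1.21 and the histone variant gene H2afx at 1.09, while the whole proliferation list had a median of 0.03 with 7 of 13 genes higher. The proteasome subunit Psmb5 was at 1.19 (0.59 to 1.86), the integrin beta 2 chain Itgb2 at 1.14 (0.48 to 1.88) and its partner Itgal at -0.63 (-1.17 to -0.10). Lowest were Ccl1, a chemokine with 2 UMIs in 1 IHG cell and 52 UMIs in 1 Ctrl cell, then Gzmb, the stress gene Gadd45g (-1.14) and the proprotein convertase Furin (-1.13). Without the top cell of each library Psmb5 was at 1.27, Itgb2 at 1.15, the RNA-binding protein gene Puf60 at 1.09 and Arl4c at -1.03. Fcer1g, the Fc receptor gamma chain, had 65 UMIs in 9 IHG cells and 15 UMIs in 4 Ctrl cells (1.75), and was at -0.77 without the cells that had a UMI of that same set.

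Over the gene lists the medians lay near that of all genes. Oxidative phosphorylation was level at -0.01 over 30 genes, with 14 higher and 16 lower and none past 1.5-fold, whereas the same genes had a median of -0.30 in CD8 T cells, where the median of all genes was -0.12. Of 10 heat shock genes 8 were higher (median 0.15). Of 10 genes induced by the T cell receptor 2 were higher (median -0.39), and of 17 migration genes 4 were higher (median -0.15). The survival and death genes had a median of -0.22, with 5 of 15 higher. Of the T cell receptor signalling genes Zap70, the kinase that the receptor recruits, was at -0.80 (-1.52 to -0.10), with a list median of -0.04. The memory and naive lists had medians of -0.05 and -0.10.

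**Figure D5:**
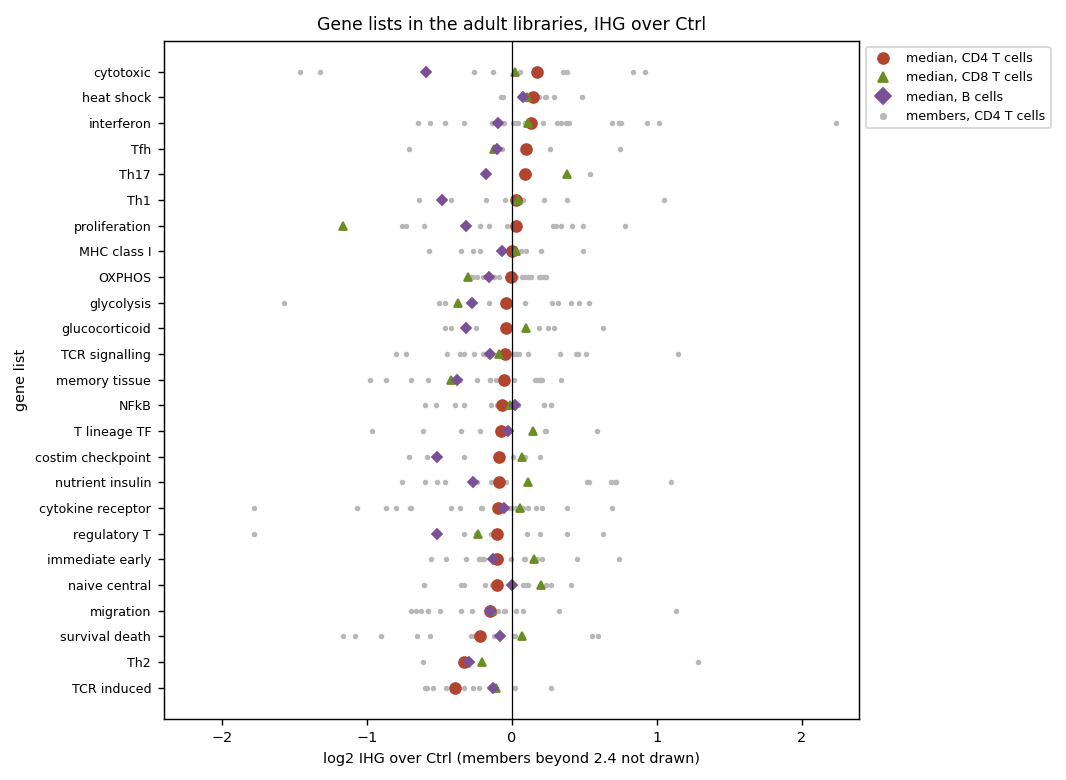
Median log2 ratio of IHG over Ctrl over the measured genes of each list in CD4 T cells (circles), CD8 T cells (triangles) and B cells (diamonds), with the single genes in CD4 T cells as small points and no test. In CD4 T cells the medians run from -0.39 for genes induced by the T cell receptor to 0.17 for cytotoxic genes.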

How the data were processed

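Single-cell libraries of adult male liver were analysed from the deposited counts, whole UMI counts per gene and barcode that the authors made with Cell Ranger (version 5.0.0, as the file headers give it). The submitters' processing notes list mm10 and Seurat without a role. The fetal libraries served to apply the rule only. Members, gene lists and promoter genes were chosen with earlier results of these data known. The lists hold 25 response and 18 marker sets. Nothing removed doublets in the main values; Scrublet (scanpy 1.11.5) entered as an alternative, at its 95th percentile.

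UMIs were summed per library and class or subset. Classes and subsets within the libraries were compared with edgeR 4.0.16 in R 4.3.3 (quasi-likelihood test, TMM, filterByExpr, Benjamini-Hochberg adjustment over all genes), with the library as a block because both classes come from the same pooled livers; 6 class sums gave 2 residual degrees of freedom and 8 subset sums gave 3. With the library as a block, the p-values measure how the differences between classes or subsets vary from 1 library to the other. That spread was estimated with prior degrees of freedom of 14.4 and 19.9, shared across genes. Each library is a pool and the 2 differ in condition, so the p-values do not measure differences between animals. IHG against Ctrl had 1 library each and no test: log2 ratios had 0.5 added to each count and exact conditional Poisson 95% intervals, and shares exact Clopper-Pearson intervals, all for counting error only. Log2 values within 1 library used TMM-scaled totals and 0.5 added to each sum. Floors used 3 counts. For genes with 1 to 3 counts on 1 side the pooled ratio with its counting interval is given. DESeq2 1.42.0 was an alternative, and limma 3.58.1 entered only through edgeR. Sums and intervals used scipy 1.17.1 and numpy 2.4.6 with pandas 2.3.3 in Python 3.11.15, figures used matplotlib 3.10.9, and the steps were tested on simulated data.

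Genes named were the genes of the rule, markers, up to 6 abundant members of each list and those past 1.5-fold, the 10 highest and 10 lowest genes of IHG over Ctrl, and the 15 highest and lowest called genes of each edgeR comparison. Zbtb7b, Runx3, Foxp3, Il2, Il5, Il10, Igtp and Fos, and Klrd1, Bhlhe40, Ahnak and Actn1 in figures, fall outside it and were chosen after their values were seen. Some genes that the rule or the gates hold are not reported here. Positions come from GENCODE M21 on mm10, where 496 of 496 gene IDs were found. Whether the counting used strand is not given in the sources used here, so overlapping and antisense genes, and families such as Bcl2a1, Hist1 and Klra, are uncertain.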

Additional observations from a re-analysis of the deposited data

Results flagged for a closer look

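Among the 10 genes ranked highest by their ratio of IHG over Ctrl in CD4 T cells, 4 were at least 1.5-fold lower in CD8 T cells. The ranking itself set their direction in CD4 T cells. Of all genes with at least 20 UMIs in CD8 T cells, 15.4% were lower in IHG by that fold. There was 1 library per group and no test of the difference. Cmtm7 had a log2 ratio of 1.06 in CD4 T cells and -1.06 in CD8 T cells. The histone variant gene H2afx was at 1.09 in CD4 and -1.07 in CD8 T cells, and the mitotic gene Ube2c at 1.21 in CD4 and -2.13 in CD8 T cells. In CD8 T cells the 14 proliferation genes had a median of -1.16, with 0 higher. The metallothionein Mt1 was at 1.07 in CD4 and -1.43 in CD8 T cells, and also lower in T cells without Cd4 or Cd8 UMIs (-0.90) and in B cells (-1.54). Within single libraries, Lyz2 in CD4 over CD8 T cells was 4.55 in IHG and -1.12 in Ctrl, and Gzma in memory-gated over naive-gated CD4 T cells was 5.66 in IHG and -0.64 in Ctrl; neither difference between the libraries was tested.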

How the results depend on the processing

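Counts of IHG over Ctrl past 1.5-fold were 456 higher and 511 lower of 4835 genes. They became 162 and 172 of 1506 genes with cells thinned to 1000 UMIs. Over genes with at least 50 UMIs they were 114 and 126 of 2404, and with at least 1 UMI 2982 and 2854 of 12309. A fold of 2 gave 137 and 133 of 4835. The number of genes differs, so these counts do not compare directly. Thinning moved 51 of the named ratios out of their main counting interval, and 117 stayed within it. With thinning, naive-gated cells were 12.9% in IHG and 17.6% in Ctrl, memory-gated cells 31.9% in Ctrl, and Foxp3-positive cells 0% in IHG. DESeq2 called 37 genes higher and 91 lower for CD4 over CD8 T cells, 38 and 113 for CD4 over T cells without Cd4 or Cd8 UMIs, and 55 and 104 for memory-gated over naive-gated cells. Without a filter on low counts the lower genes numbered 277, 501 and 87 in these comparisons, of 17439, 17439 and 12255 genes run. Thinning, added after seeing the data, gave 58 higher for CD4 over CD8 and 31 higher and 104 lower for the second comparison, with 3204 genes run in each. Without the replicate block the calls were 46 higher and 45 lower for CD4 over CD8 T cells, 55 and 168 for the second comparison, and 138 and 150 for memory-gated over naive-gated cells. No paired analysis was possible because IHG and Ctrl had 1 library each. Leaving out a library left no residual degrees of freedom, so that only log2 values within the other library were computed. In the ratio of IHG over Ctrl, leaving out cells with a UMI of the genes Cd79b, Ms4a1, Lyz2, C1qa, C1qb, Csf1r, Ncr1, Kdr or S100a8 reversed Ccl1 to 2.08, Ccl3 to 0.21, Fcer1g to -0.77, Gzma to -0.45 and Lyz2 to -0.24. For CD4 over CD8 T cells, Lyz2 was -0.10 without its top cell, 4.55 without Ctrl and -1.12 without IHG, and the interferon-induced GTPase gene Igtp -0.16 with thinning. Gzma in memory-gated over naive-gated cells was 5.66 without Ctrl and -0.64 without IHG. The causes were not tested beyond these alternatives. The comparison of Foxp3-positive with naive-gated cells was not run, with 4 cells in IHG and 0 in Ctrl under the minimum of 20.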
